A study of Mus musculus with 8 samples.

Results

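Antibody transcripts of the mouse pancreas were followed on 29 array rows, which were taken by gene symbol. The members were chosen with earlier results of these data known. They are the rows whose platform annotation gives 1 gene symbol and whose symbol is that of an immunoglobulin variable (V) segment, an immunoglobulin constant region or the J chain. The table held 41345 rows, 23521 of them with 1 symbol. The 29 rows carry 20 genes: Ighm (7 rows) and Ighg3 (2 rows) of the heavy chain constant regions, 3 Ighv segments with a row each, 13 Igkv segments in 15 rows, Iglv1, and Jchain. RefSeq's table of the assembly GRCm38.p6 lists 120 Ighv, 102 Igkv and 3 Iglv V segments, so the rows sample a small part of the repertoire. No row with 1 symbol carried the name of another heavy chain class or of a light chain constant region.

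An antibody is built from heavy and light chains, and each chain joins a variable region, cut and pasted in the developing B cell from V, joining and, in heavy chains, diversity segments, to a constant region that sets its class. Ighm encodes the constant region of IgM, the class made first and by resting B cells, and Ighg3 that of IgG3, reached by class switching. Jchain encodes the joining chain that links IgM into pentamers and IgA into dimers and is made mainly by antibody-secreting cells. A V segment gives an abundant transcript only in the B cells and plasma cells that have rearranged it, and not in the pancreatic cells around them. Which transcripts each row reads is not given here, and dim rows may read none of them.

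The samples were pancreas of LmnaKO mice (KO, 4 arrays) and LmnaWT mice (WT, 4 arrays), all of strain C57 BL6, with 3 males and 1 female in each group. Lmna encodes lamin A/C, a filament protein of the nuclear envelope, and the series title places its loss in the acinar cells, which make the digestive enzymes. Mice of both groups were taken 6 days after tamoxifen, injected into the abdomen at 3 mg per 40 g of body weight. The labels give no age, and neither the promoter nor the cell type that drives a recombinase. In both groups the female is replicate 4.

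Lmna read 2.33, 2.58, 2.73 and 2.61 in KO 1 to KO 4, against 2.54, 3.13, 2.67 and 2.88 in WT 1 to WT 4 (log2, limma adjusted p = 0.266), and the groups overlapped. No source used here places its probes, so this row does not check the genotype labels. Of 18 acinar enzymes 6 were called lower and 0 higher in KO (limma adjusted p under 0.05), against 6.82% and 13.8% of all rows. The carboxypeptidase Cpb1 read 11.89 to 11.94 in KO and 12.09 to 12.20 in WT, near the maximum of the arrays (12.35 to 12.47). The lower quartile of all rows lay at 1.34 to 1.38 in KO and 1.48 to 1.53 in WT, and the median row at 2.13 to 2.17 and 2.22 to 2.33. The upper quartile lay at 3.83 to 3.99 in KO and 3.59 to 3.69 in WT. Values of about 1 are therefore at the dim end of the scale, and signal over background is unknown for every row. The KO arrays were thus lower at the lower quartile and higher at the upper one. Among the 7172 rows of level 4 or more, 3002 were called higher in KO and 341 lower. The shares over all rows given below are not matched for level. The number of arrays limits the precision. The labels number the arrays as replicates and do not say that each came from its own animal. Where some did not, the p-values measure only a technical spread.

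KO 2 stood apart in the antibody rows. It was the highest of the 8 arrays in 25 of the 29, against 13.2% of all 23521 rows. Differences without KO 2 are given beside the main ones where they move by over 1.5 times.

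The RefSeq promoter table matched only 1 of the 20 genes, Jchain, so the promoters of the V segments could not be searched. The 250 bases before the Jchain start are shown as those of the only match. They lie at chr5:88527898-88528147 of GRCm38.p6 on the minus strand and read, 5′ to 3′:
Jchain promoter: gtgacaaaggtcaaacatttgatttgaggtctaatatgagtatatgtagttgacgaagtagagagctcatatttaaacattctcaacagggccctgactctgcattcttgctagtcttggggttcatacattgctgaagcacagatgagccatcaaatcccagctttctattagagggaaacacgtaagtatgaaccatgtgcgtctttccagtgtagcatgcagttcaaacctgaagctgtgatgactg

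The octamer ATTTGCAT, known from immunoglobulin promoters and bound by the Oct proteins with their B cell coactivator, was searched on both strands (its reverse complement is ATGCAAAT), in the window from 250 bases before to 50 after the start. The Jchain window held no match, so no letter above is in capitals, which says only that these letters are not in this window. Of all 32851 promoter windows 570 (1.735%) held it. Among the 21 windows of B cell markers it was found in 1, that of Vpreb3, 45 bases before the start, and among the 23 of plasma cell markers in 1, that of Pim2.

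**Figure D1:**
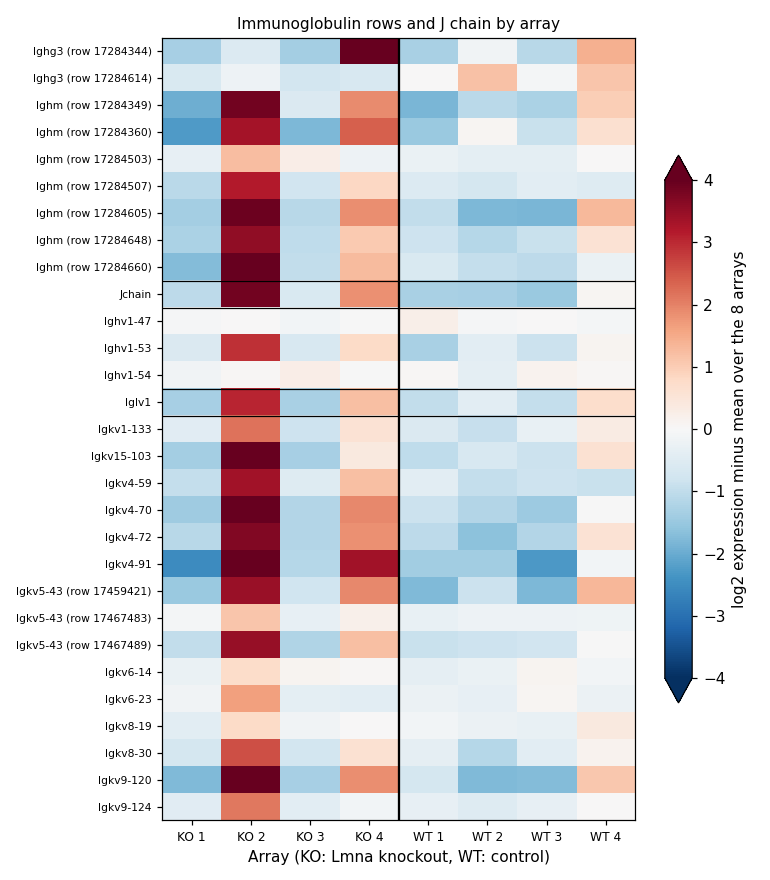
Heat map of the 29 antibody rows (down) in the 8 arrays (across, 4 KO then 4 WT). Colour is the log2 value minus the row's mean over the 8 arrays, clipped at 4. The KO 2 column is the highest in 25 of 29 rows, and KO 4 and WT 4 are next in most, while KO 1 and KO 3 look like WT 1 to WT 3.

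The comparison of KO with WT asks whether antibody transcripts differ between pancreas labelled LmnaKO and LmnaWT. Of the 29 rows 0 were called higher and 1 was called lower in KO, at a Benjamini-Hochberg adjusted p of 0.05 in a limma fit over all 23521 rows. Over all rows, 13.8% were called higher and 6.82% lower. At an unadjusted limma p under 0.05 the count was also 1 of 29, against 9067 of all 23521 rows. The median difference of the 29 rows was 0.96 log2 units (KO minus WT), against -0.06 over all rows. Of the 29 differences 27 were positive, against 10390 of all 23521 rows. Without KO 2 the median was 0.18, with 21 positive and 8 negative. In bulk tissue, fewer cells of a type and less RNA per cell cannot be told apart.

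In 0 of the 29 rows did all 4 KO arrays lie above all 4 WT arrays, and in 1 they all lay below, against 14.8% and 12.2% of all rows. The confidence intervals were wide: that of Igkv4-91 ran from -0.80 to 5.96 and that of Jchain from -0.08 to 4.14 (95%, log2). A miss of the threshold here does not show equal levels.

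**Figure D2:**
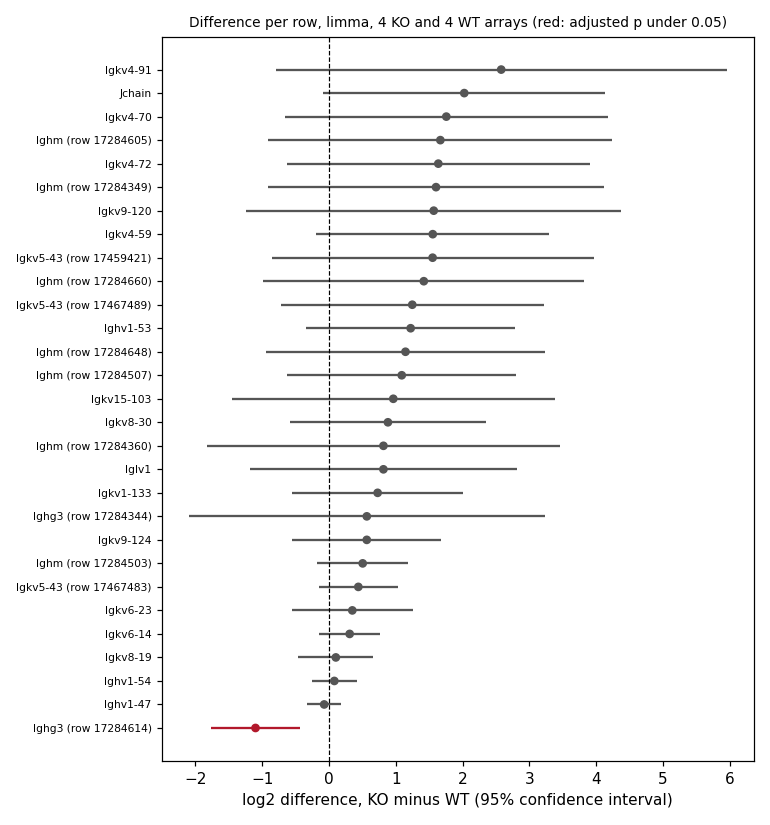
Difference between the KO and WT means of each of the 29 rows (points, log2, KO minus WT) with its 95% confidence interval from the limma fit (lines), ordered by size. Of the intervals, 28 include 0, and the red row is the Ighg3 row 17284614 at -1.10.

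Ighm had the most rows. Nothing in the sources used here says what part of the locus these rows read, so a row named Ighm may read V segments or rearranged transcripts as well as the IgM constant region. Ighm row 17284349 read 4.77, 10.57, 6.12 and 8.59 in KO 1 to KO 4, against 4.87, 5.63, 5.45 and 7.69 in WT 1 to WT 4. KO 2 and KO 4 were high, WT 4 was next, and KO 1 lay below every WT array. Its difference was 1.60 ± 1.13 (log2, SE, 4 arrays in each group), with a limma adjusted p of 0.307 and a p of 0.286 in the exact permutation test (two-sided). Without KO 2 it was 0.58.

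Ighm row 17284360 read 5.35, 10.93, 5.82 and 9.99 in KO 1 to KO 4, against 6.14, 7.69, 6.72 and 8.27 in WT 1 to WT 4. Here KO 1 and KO 3 were both below all WT arrays and KO 2 and KO 4 both above them, so that the KO group lay on either side of the WT group. The difference, 0.82 ± 1.18 (limma adjusted p = 0.621), turned to -0.15 without KO 2.

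Of the other 5 Ighm rows, row 17284605 read 2.33, 7.60, 2.57 and 5.52 in KO 1 to KO 4, against 2.69, 1.86, 1.83 and 4.97 in WT 1 to WT 4. Row 17284648 read 1.39, 6.19, 1.62 and 3.69 in KO, against 1.82, 1.51, 1.74 and 3.23 in WT. In these rows the order was KO 2, KO 4, WT 4, with the remaining arrays of either genotype close together. Row 17284660 read 0.77, 6.79, 1.51 and 3.75 in KO, against 1.90, 1.55, 1.45 and 2.24 in WT. Row 17284507 read 2.72, 6.95, 3.03 and 4.63 in KO, against 3.25, 3.09, 3.37 and 3.27 in WT, where the WT arrays spanned only 0.28. Row 17284503 stayed at 0.97 to 2.53 in KO and 0.89 to 1.31 in WT, with KO 2 the highest. All 7 Ighm rows had KO 2 as their highest array. Their differences ran from 0.51 to 1.67 with limma adjusted p from 0.237 to 0.621, and 0 of 7 was called. Without KO 2 they ran from -0.15 to 0.64, with 6 positive and 1 negative.

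The 2 rows named Ighg3 disagreed. Row 17284344 read 2.18, 2.98, 2.14 and 7.89 in KO 1 to KO 4, against 2.21, 3.36, 2.41 and 4.94 in WT 1 to WT 4. Here KO 4 was the high array and WT 4 the next, both from females, while KO 2 read within the WT range. The difference of 0.57 ± 1.19 (limma adjusted p = 0.737) turned to -0.80 without KO 4 and to -0.23 in males only.

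Row 17284614 read 1.09, 1.51, 0.98 and 1.05 in KO 1 to KO 4, against 1.72, 2.87, 1.63 and 2.81 in WT 1 to WT 4. All KO arrays lay below all WT arrays, in the dim part of the scale, where the lower quartile of all rows was also lower in KO. Its difference of -1.10 ± 0.30 was the 1 call of the 29 (limma adjusted p = 0.0300). The exact permutation test (two-sided) gave 0.0286, which is as low as it can go with 4 arrays in each group, and 0.286 after adjustment over the 10 constant region and J chain rows. The call was lost without KO 1, KO 3, KO 4, WT 2 or WT 4, in males only (-0.88), and when the values were normalized again by quantiles (-1.01) or cyclic loess (-0.91). The annotation does not say which exons or segments either row reads.

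Jchain, the chain that joins IgM and IgA units, read 2.40, 7.29, 2.83 and 5.27 in KO 1 to KO 4, against 2.13, 2.11, 1.94 and 3.50 in WT 1 to WT 4. KO 2 and KO 4 were above every WT array, KO 1 and KO 3 lay between WT 4 and the rest of the WT arrays. The difference of 2.03 ± 0.94 did not pass (limma adjusted p = 0.142). The exact permutation test (two-sided) gave 0.171, or 0.536 after adjustment over the 10 rows. It was 1.08 without KO 2.

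**Figure D3:**
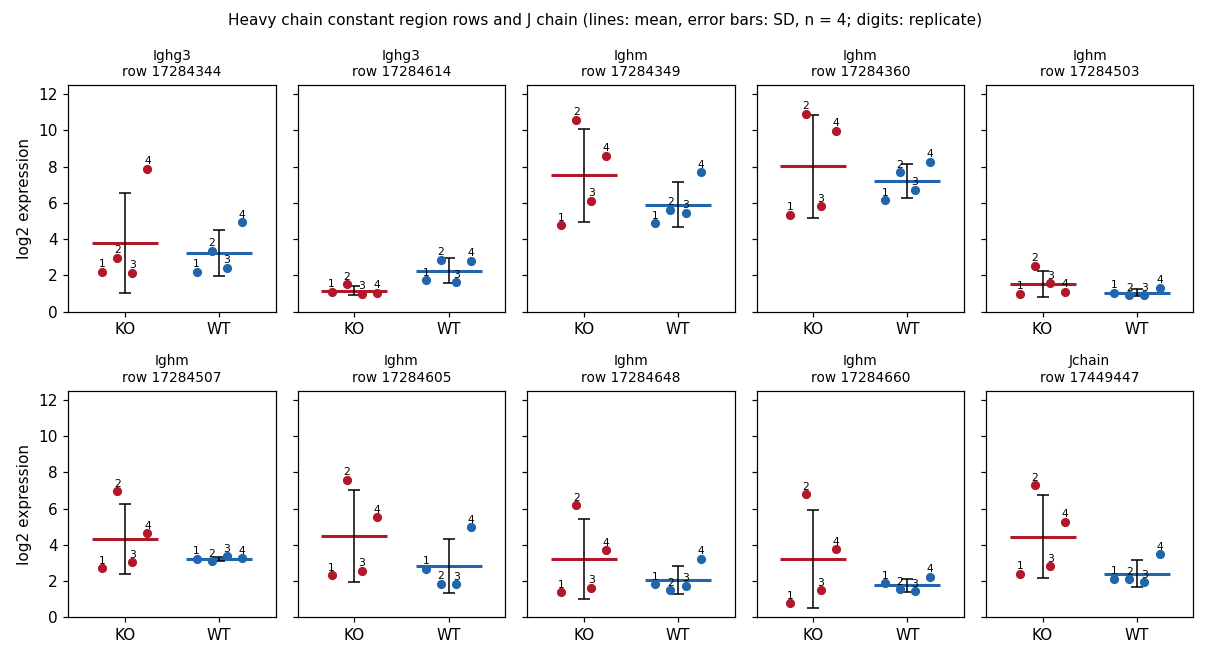
log2 expression of the 9 heavy chain constant region rows and Jchain, KO left and WT right in each panel. Points are arrays with their replicate number, lines are group means and error bars are SD (n = 4). Replicates 2 and 4 of KO and replicate 4 of WT lie above the others in most panels, and row 17284614 of Ighg3 shows the groups apart.

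V segments of the kappa light chain locus repeated the array order. In 15 of 15 Igkv rows KO 2 was the highest array, and in 13 of them KO 4 was the next among the KO arrays. Igkv4-91 read 1.37, 9.30, 2.73 and 7.24 in KO 1 to KO 4, against 2.49, 2.49, 1.59 and 3.76 in WT 1 to WT 4. KO 2 exceeded the WT median by 6.81 log2 units, the largest such excess of KO 2 among all 23521 rows, while KO 1 lay below every WT array. The group difference was 2.58 ± 1.51 (limma adjusted p = 0.227), and 1.20 without KO 2.

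Igkv5-43 row 17459421 read 5.66, 10.61, 6.36 and 9.08 in KO 1 to KO 4, against 5.40, 6.29, 5.34 and 8.47 in WT 1 to WT 4. WT 4 reached close to KO 4 here, and the difference of 1.55 was 0.66 without KO 2. Igkv15-103 read 2.58, 8.20, 2.61 and 4.33 in KO, against 2.93, 3.29, 3.09 and 4.55 in WT. In this segment WT 4 read above KO 4, and without KO 2 the difference of 0.96 ± 1.08 (limma adjusted p = 0.521) turned to -0.29.

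Igkv9-120 read 0.89, 7.05, 1.34 and 4.52 in KO 1 to KO 4, against 1.97, 0.89, 0.92 and 3.73 in WT 1 to WT 4. Igkv4-70 read 1.62, 7.21, 1.85 and 4.97 in KO, against 2.16, 1.86, 1.59 and 3.01 in WT. Both again put KO 2, KO 4 and WT 4 on top, with the remaining arrays at 0.89 to 2.16. The Igkv9-120 difference of 1.57 was 0.37 without KO 2. The 4 Igkv4 segments (4-59, 4-70, 4-72 and 4-91) had differences of 1.55, 1.76, 1.64 and 2.58, which were 0.69, 0.66, 0.68 and 1.20 without KO 2. Members of such a family are alike in sequence, so their rows may share transcripts and are not independent readings.

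The other 10 Igkv rows read from 1.67 (Igkv6-14) to 7.26 (Igkv4-72) in KO 2. Some were dim throughout: Igkv6-14 stayed at 0.68 to 1.67 in KO and 0.58 to 1.03 in WT, and Igkv8-19 at 1.03 to 2.21 in KO and 1.16 to 1.85 in WT. Over the 15 rows the differences ran from 0.10 to 2.58 and the limma adjusted p from 0.169 to 0.773, with 0 called. Without KO 2 they ran from -0.29 to 1.20, with 11 positive and 4 negative. The 3 rows named Igkv5-43 differed in size (0.44, 1.25 and 1.55, or 0.15, 0.29 and 0.66 without KO 2) and not in sign.

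The lambda segment Iglv1 read 1.94, 6.30, 1.96 and 4.46 in KO 1 to KO 4, against 2.28, 2.84, 2.30 and 3.96 in WT 1 to WT 4, in the same order as the kappa rows. Its difference of 0.82 ± 0.89 (limma adjusted p = 0.51) turned to -0.064 without KO 2. Of the heavy chain V segments, Ighv1-53 read 2.80, 6.29, 2.72 and 4.14 in KO, against 2.08, 2.97, 2.53 and 3.48 in WT (1.22 ± 0.70, limma adjusted p = 0.218), a difference of 0.46 without KO 2. The 2 others carried no such pattern: Ighv1-47 stayed at 0.864 to 0.997 in KO and 0.90 to 1.20 in WT, and Ighv1-54 at 0.55 to 0.98 in KO and 0.32 to 0.84 in WT. Both lie among the dimmest rows of the table, at percentiles 4.10 and 0.451 of mean level.

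Across the 29 rows the spread between KO arrays was wide. The median SD was 2.12 log2 units in KO and 0.60 in WT, against 0.17 and 0.24 over all rows with 1 symbol. The SD in KO exceeded that in WT in 26 of 29 rows (89.7%), against 33.3% of all rows. Compared with rows of like mean level (within the same log2 unit), 26 of 29 lay in the top 5% of SD among KO arrays and 14 of 29 in the top 5% among WT arrays. These are descriptions, and the difference in spread was not tested.

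Set against the 4 WT arrays, KO 2 lay above all of them in 25 of 29 rows and KO 4 in 20, while KO 1 did so in 1 and KO 3 in 2. Over all rows these shares were 28.6% for KO 2, 28.7% for KO 4, 26.4% for KO 1 and 27.6% for KO 3. KO 1 lay below all WT arrays in 14 of the 29 (48.3%) and KO 3 in 10 (34.5%), against 28.1% and 29.3% of all rows, so that KO 3 was near the background. The median excess over the WT median was 3.72 in KO 2 and 1.89 in KO 4, with -0.20 in KO 1 and -0.11 in KO 3. Within WT, WT 4 was the highest in 22 of 29 rows, against 21.8% of all rows. The 3 highest arrays were KO 2, KO 4 and WT 4 in 19 of 29 rows, and in 394 (1.68%) of all rows. KO 4 and WT 4 are the females and KO 2 is a male. With 1 female per genotype, sex and the single array cannot be told apart.

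KO 2 was also high in B cell genes other than immunoglobulins, with WT 4 and not KO 4 next to it. Their mean level (deviation from the 8-array mean) was 1.16 in KO 2 and 0.03 in KO 4, against 0.73 in WT 4, and KO 4 lay above all WT arrays in 3 of 22. Of the 22 B cell markers 16 were highest in KO 2 and 5 in WT 4, and WT 4 was the highest WT array in 20. Ms4a1, the B cell surface protein CD20, read 1.23, 4.61, 1.26 and 2.38 in KO 1 to KO 4, against 1.34, 1.37, 1.37 and 3.50 in WT 1 to WT 4. Cd79a, a signalling chain of the B cell receptor, read 1.79, 4.75, 2.50 and 3.49 in KO, against 2.57, 2.90, 2.57 and 4.52 in WT. Its partner Cd79b read 1.92, 4.32, 2.02 and 2.67 in KO, against 1.99, 3.01, 2.81 and 3.32 in WT. In these genes KO 2 and WT 4 were the 2 highest arrays. Their differences were 0.48, -0.0041 and -0.049, and without KO 2 -0.27, -0.54 and -0.58. Bank1, an adaptor of B cell receptor signalling, read 2.88, 6.00, 2.75 and 4.47 in KO, against 2.80, 3.15, 2.88 and 4.39 in WT, and its difference of 0.72 was 0.064 without KO 2.

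Of the B cell list 1 of 22 was called higher and 0 lower, against 13.8% and 6.82% of all rows. The median difference was 0.01. The called gene was Cd180, a receptor of B cells that macrophages also carry (1.52 ± 0.39, limma adjusted p = 0.0250). It read 2.53, 4.54, 3.29 and 3.33 in KO 1 to KO 4, against 1.32, 2.25, 1.70 and 2.34 in WT 1 to WT 4, so that all KO arrays lay above all WT arrays. This held for 1 of the 22 B cell markers, 0 of the 29 antibody rows and 14.8% of all rows. The call was lost without KO 3, KO 4 or WT 3 and in males only.

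As a list, markers of plasma cells, the antibody-secreting end stage, did not follow the antibody rows. The list mixes dim genes with genes that were bright in every array. Edem1 read 8.46 to 8.86 in KO and 8.42 to 9.08 in WT, and Xbp1 6.94 to 7.56 and 7.18 to 7.92. Of 19 measured genes 3 were called higher and 1 lower, the median difference was -0.09, and KO 2 was the highest array in 5. Tnfrsf17, the plasma cell survival receptor BCMA, read 1.19 to 1.33 in KO and 1.32 to 1.42 in WT, in the dim part of the scale in all 8 arrays. Mzb1, an endoplasmic reticulum protein that helps assemble IgM, read 1.83, 2.87, 1.72 and 2.15 in KO 1 to KO 4, against 2.59, 2.34, 2.51 and 2.51 in WT 1 to WT 4 (-0.35 ± 0.23, limma adjusted p = 0.276; -0.59 without KO 2). Pou2af1, the octamer coactivator of B cells, read 1.97, 3.80, 1.95 and 2.59 in KO, against 2.27, 2.75, 3.02 and 3.24 in WT, a difference of -0.24, or -0.65 without KO 2. Sdc1, the plasma cell surface protein CD138, which epithelium also makes, read 3.31 to 3.58 in KO and 2.79 to 3.23 in WT (0.40 ± 0.13, limma adjusted p = 0.0554). Prdm1, which drives plasma cell fate, read 2.13 to 2.94 in KO and 2.27 to 3.10 in WT.

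The 4 called genes of this list were Derl3 (1.02 ± 0.17, limma adjusted p = 0.0051), Slamf7 (0.98 ± 0.22, limma adjusted p = 0.0158) and Ly6c2 (2.03 ± 0.64, limma adjusted p = 0.0498), higher, and Fkbp11 (-0.72 ± 0.14, limma adjusted p = 0.0085), lower. Derl3, of endoplasmic reticulum degradation, and Fkbp11, a folding enzyme, belong to the secretory machinery that acinar cells also hold. Slamf7 and Ly6c2 are also carried by other leukocytes, among them monocytes in the case of Ly6c2. The highest array was KO 1 in Derl3, KO 2 in Slamf7, KO 4 in Ly6c2 and WT 1 in Fkbp11.

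**Figure D4:**
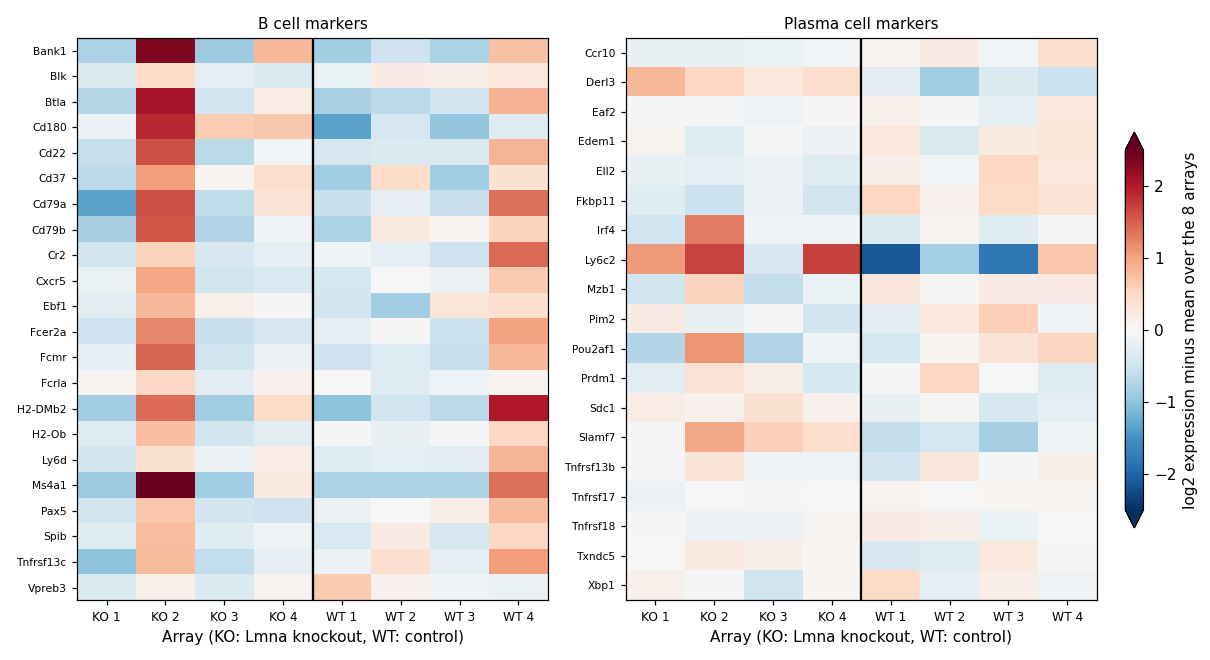
Heat maps of 22 B cell markers (left) and 19 plasma cell markers (right) in the 8 arrays. Colour is the log2 value minus the gene's mean over the 8 arrays, clipped at 2.5. In the left panel KO 2 and WT 4 are the highest columns, with KO 2 on top in 16 of 22 genes, and in the right panel KO 2 is on top in 5 of 19.

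Genes of immunoglobulin rearrangement and the pre-B cell receptor gave 1 higher and 1 lower call among 9, against 13.8% and 6.82% of all rows. Vpreb1, the surrogate light chain of precursor B cells, read 1.18 to 1.25 in KO and 1.47 to 2.37 in WT (-0.78 ± 0.19, limma adjusted p = 0.0195), and Polh, a DNA polymerase that bypasses damage and acts in antibody mutation, was higher (0.62 ± 0.14, limma adjusted p = 0.0172). Rag2, of the V segment recombinase, read 1.03 to 1.47 in KO and 1.13 to 1.47 in WT. Igll1, the other surrogate light chain part, read 1.98 to 2.13 in KO and 2.12 to 2.63 in WT. KO 2 was the highest array in none of Vpreb1, Rag2 and Igll1.

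Receptors and carriers of antibodies were measured in 16 genes, of which 3 were called higher and 0 lower (5 and 0 with the replicate number as a block). Over all rows 13.8% were called higher and 6.82% lower (3692 and 1340 of 23521 rows with the block). Fcgr1, the high-affinity IgG receptor of macrophages, read 3.96, 4.43, 4.62 and 4.88 in KO 1 to KO 4, against 2.36, 3.32, 2.26 and 2.25 in WT 1 to WT 4 (1.92 ± 0.27, limma adjusted p = 0.0030). Fcgr4, an activating IgG receptor, rose by 1.27 ± 0.19 (limma adjusted p = 0.0040) and Fcer1g, the signalling chain these receptors share, by 1.87 ± 0.51 (limma adjusted p = 0.0316). In Fcgr1 and Fcgr4 all KO arrays lay above all WT arrays, KO 1 and KO 3 included. This held for 2 of the 16 genes, 0 of the 29 antibody rows and 14.8% of all rows. Pigr, which carries IgA and IgM across epithelia, read 4.12, 3.65, 4.31 and 4.76 in KO, against 3.46, 4.32, 4.27 and 3.39 in WT, with the groups overlapping (0.35 ± 0.28, limma adjusted p = 0.367; 0.54 without KO 2).

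Of 21 genes for homing and survival of B and plasma cells 1 was called higher and 1 lower. The shares of all rows were 13.8% and 6.82%. With the replicate block 3 and 0 of the 21 were called, against 3692 and 1340 of all 23521 rows. Cxcl13, the chemokine that draws B cells into follicles, read 4.30, 9.93, 5.24 and 9.03 in KO 1 to KO 4, against 4.69, 7.05, 4.51 and 7.26 in WT 1 to WT 4. KO 2, KO 4 and WT 4 were again the highest arrays, closely followed by WT 2, and the difference of 1.25 ± 1.24 did not pass (limma adjusted p = 0.465) and was 0.31 without KO 2. Tnfsf13b, the B cell survival factor BAFF, read 1.96 to 2.20 in KO and 2.36 to 2.75 in WT and was the lower call (-0.44 ± 0.12, limma adjusted p = 0.0321). Tgfb1, a cytokine that among much else directs switching to IgA, was the higher call (1.59 ± 0.36, limma adjusted p = 0.0166).

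The array order was also set beside markers of other cells. The mean level of the 29 antibody rows, as deviation from the 8-array mean, was -1.004, 2.62, -0.75 and 1.08 in KO 1 to KO 4, against -0.74, -0.70, -0.80 and 0.31 in WT 1 to WT 4. For B cell markers it ran from -0.53 to 1.16 in KO and -0.44 to 0.73 in WT, with KO 2 and WT 4 at the top. For T cell markers it ran from -0.24 to 0.11 in KO and -0.26 to 0.55 in WT. For follicular and lymphoid stroma markers it ran from -0.54 to 0.60 in KO and -0.59 to 0.94 in WT, with KO 2 and WT 4 the highest. Glycam1, a mucin of the high endothelial venules of lymph nodes, read 7.19 in WT 4, against 1.75 to 2.22 in the KO arrays and 1.83 to 1.98 in WT 1 to WT 3. Neutrophil markers read -0.48, 0.91, -0.52 and 0.79 in KO 1 to KO 4, against -0.33 to 0.01 in WT, so KO 2 and KO 4 were also the highest there. The part of these cells in the antibody levels was not tested.

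Of 20 macrophage markers 10 were called higher and 0 lower, against 13.8% and 6.82% of all rows. With the replicate block 16 and 0 of them were called, against 3692 and 1340 of all 23521 rows. The mean level of these markers was -0.19, 1.11, 0.75 and 1.08 in KO 1 to KO 4, against -1.27, -0.10, -0.85 and -0.53 in WT 1 to WT 4, KO 3 being high here and low in the antibody rows. The count was 16 without KO 1, 6 without KO 2, KO 3 or WT 3, and 4 without KO 4. Beside the same 13.8% and 6.82% of all rows, 0 of 16 T cell markers were called higher and 2 lower (Zap70 and Cd6, both of T cell receptor signalling). Counts were 0 and 0 of 9 follicular and lymphoid stroma markers, 0 and 0 of 14 neutrophil markers, and 1 and 0 of 5 erythroid and blood markers. At an unadjusted limma p under 0.05 there was 1 of the lymphoid stroma and 1 of the neutrophil markers, against 9067 of all 23521 rows.

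**Figure D5:**
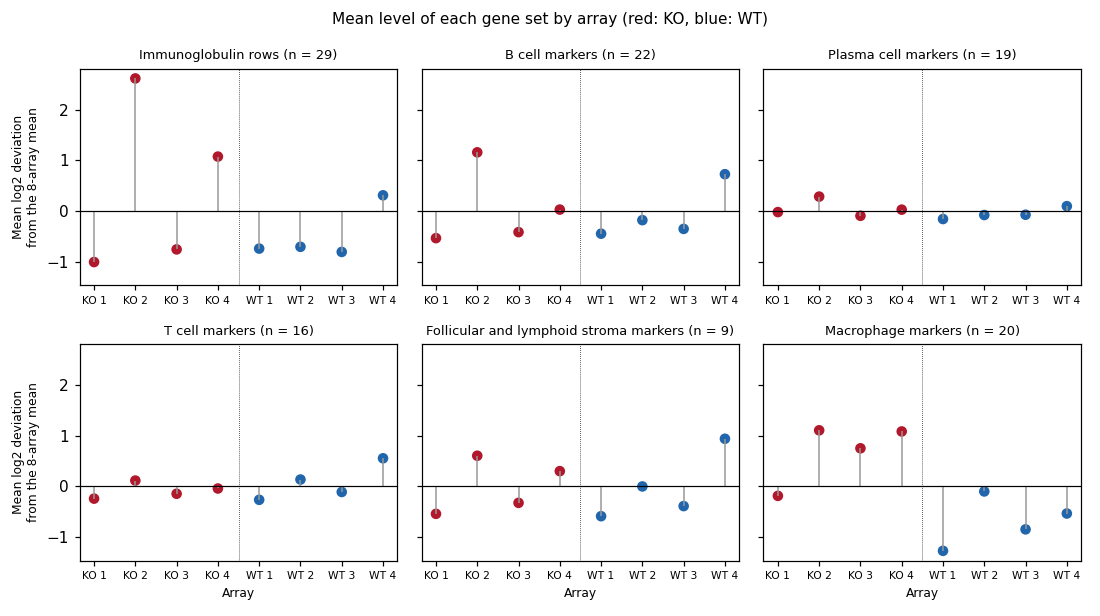
Mean level of 6 gene sets in each array, as the mean log2 deviation of their rows from the 8-array mean (KO in red on the left, WT in blue on the right of each panel). The antibody rows peak in KO 2 (2.62) and KO 4 (1.08), the B cell markers in KO 2 and WT 4, and the macrophage markers in KO 2, KO 3 and KO 4.

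T cell receptor segments, the other gene segments rearranged in lymphocytes, were read by 21 rows. KO 2 was the highest array in 0 of them and WT 4 in 9, against 13.2% and 2845 of all 23521 rows. Of these rows 0 were called higher and 4 lower, against 13.8% and 6.82% of all rows. In 8 of the 21 all KO arrays lay below all WT arrays, against 12.2% of all rows. The median difference was -0.30, and the median SD was 0.11 in KO and 0.26 in WT. The test of the difference between the 2 kinds of segment was not made.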

How the data were processed

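Total RNA of 8 mouse pancreas samples was labelled, per the labels' protocols, as biotinylated cDNA from 100 ng by a whole-transcript protocol. The log2 values were deposited as 1 table. The submitters' processing notes name limma, oligo and RMA without versions, and the log base is inferred from the range of the values. Columns were matched to samples by name, with 0 unmapped. No source used here gives the genome build, the probe positions or a batch, so no batch was tested.

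Of 41345 rows 1814 with several symbols and 16010 with none were left out. All 29 antibody rows had an Entrez identifier in the RefSeq table, with unchanged symbols. limma 3.58.1 (lmFit, eBayes; R 4.3.3) was fitted on 23521 rows with genotype as the factor and Benjamini-Hochberg adjustment over all rows; the fit was tested on simulated data. Exact permutation tests were run on the 10 constant region and J chain rows. List genes with several rows took the row of highest mean; 11 lists were described by counts. All constant region and J chain rows are named; named V rows were, per class, any called and the 3 rows each of highest level and of largest SD within a group. Named list genes were up to 4 of smallest p per list and set defining markers. The other genes and V rows named were chosen after their values were seen, among them Bank1, Cxcl13, Glycam1, Rag2, Igll1 and Cpb1. The members and lists were chosen with earlier results of these data known. Alternatives were other normalizations, sex or replicate number as a term, males only, arrays left out, a variance trend, array weights, a level filter, 1 row per gene and all rows.

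Both groups carry replicate numbers 1 to 4. Arrays with the same number deviated together from the means of their groups, with correlations across rows of 0.25, 0.15, 0.11 and 0.13. Each exceeded 0.1, but arrays of unlike number were not set beside them over all rows. The values therefore do not establish a pairing, and the labels state none. Over the 29 antibody rows alone the correlations of same-number arrays were 0.29, -0.36, 0.64 and 0.64. Those of unlike number ran there from -0.68 (KO 1 with WT 4) to 0.69 (KO 1 with WT 3).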

Additional observations from a re-analysis of the deposited data

Results flagged for a closer look

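Some arrays lay far from the rest of their group by Dixon's test at the 95% level (4 arrays a group), which flags about 1 in 20 groups by chance. Among the antibody rows this held for 5 of 58 row-by-group tests. In KO, Igkv6-23 read 2.62 and Igkv9-124 read 3.42 in KO 2, against at most 0.84 and 1.20 in the other KO arrays, and Ighg3 row 17284344 read 7.89 in KO 4, against 2.14 to 2.98. In WT, the Igkv5-43 row 17467489 read 1.72 and Jchain 3.50 in WT 4, against at most 0.96 and 2.13 in the other WT arrays.

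Of 58 other rows whose genes were named by rule or in the text, the same held for 12. Each of these rows was tested in KO and in WT, so the count does not compare with the row-by-group count above. List genes outside these rows, among them Irf4, Tnfrsf13b, Xbp1 and Edem1, were not tested for it. In KO the flagged rows were Pax5, a B cell transcription factor, highest in KO 2 (3.36), Amy2b highest in KO 1 (7.99), Clu (8.84) and Tnfrsf17 (1.19) lowest in KO 1, and Ly6g lowest in KO 3 (1.77). In WT they were the B cell genes Cd79a (4.52) and Ms4a1 (3.50), highest in WT 4, as was Glycam1 (7.19), Fcgr1 highest in WT 2 (3.32), and Cela3a (6.39), Epb42 (1.40) and Zap70 (2.54), lowest in WT 1.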

How the results depend on the processing

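In each alternative 0 antibody rows were called higher. The 1 lower call (an Ighg3 row) became 0 in males only, with cyclic loess, with quantile normalization repeated, among rows of level 4 or more and with 1 row per gene, the last 2 because the row was left out; with an array left out it was 0 or 1. KO 2 was the highest array in 25 rows and the top 3 arrays the same in 19 under all 3 other scalings. The replicate block left the antibody, B cell and plasma cell counts unchanged, and gave 5 higher receptors, 3 higher and 0 lower homing genes and 16 higher macrophage markers. Homing genes (1 higher, 1 lower) numbered 0 and 0 after the second quantile normalization, after cyclic loess and in males only, 2 and 0 after median centring and 2 higher with sex as a term, and 0 lower with the level filter. The second quantile normalization gave 5 macrophage calls, 2 lower plasma cell markers, 1 lower T cell marker and 0 higher rearrangement genes, and cyclic loess 4, 3, 1 and 0 (and 0 lower rearrangement genes). Males only gave 1 macrophage marker, 3 lower acinar enzymes and 0 calls in the B cell, plasma cell, rearrangement, T cell and erythroid lists. Array weights gave 5 receptors, 2 lower plasma cell markers and 1 lower neutrophil marker, a trend with robust eBayes 1 lower neutrophil marker, median centring 1 higher lymphoid stroma marker, the level filter 0 B cell and 2 lower plasma cell markers, and median centring, sex as a term and all rows 1 lower T cell marker. With 1 array left out the counts ran from 0 to 4 higher and 0 to 2 lower homing genes, 0 to 1 B cell markers, 0 to 3 lower T cell markers, 2 to 5 receptors, 0 to 1 higher and 0 to 2 lower rearrangement genes, 4 to 16 macrophage markers, 0 to 1 lower neutrophil markers and 1 to 2 lower plasma cell markers. The causes were not tested.

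Differences near 0 changed sign without passing. Ighv1-47 was 0.0038, 0.036 and 0.065 and Tnfrsf17 0.036, 0.061 and 0.043 after the second quantile normalization, cyclic loess and median centring. Prdm1 was 0.020 and 0.050 and Cd79b 0.0048 and 0.088 after the last 2, Cd79a 0.13 after median centring, and in males only Cd79b was 0.15, Cd79a 0.34 and Ighg3 row 17284344 -0.23. Rag2 was 0.00076, 0.030 and 0.024 after the second quantile normalization, cyclic loess and median centring, and Glycam1 0.093 in males only. Mfge8, of the lymphoid stroma list, was -0.016 after the second quantile normalization. With 1 array left out Prdm1 ran from -0.22 to 0.071, Cd79b from -0.58 to 0.22, Cd79a from -0.54 to 0.46, Ms4a1 from -0.27 to 1.01, Ighg3 row 17284344 from -0.80 to 1.14, Ighm row 17284360 from -0.15 to 1.71, Ighv1-54 from -0.032 to 0.15, Iglv1 from -0.064 to 1.39, Igkv15-103 from -0.29 to 1.58, Igkv6-23 from -0.14 to 0.55, Igkv8-19 from -0.13 to 0.26, Igkv9-124 from -0.043 to 0.82 and Glycam1 from -1.74 to 0.044. The split of calls over all rows also moved with scaling: 3254 higher and 1603 lower as reported, 1225 and 1146 after the second quantile normalization, 1540 and 1203 after cyclic loess, and 4434 and 633 after median centring, which moved the median of all rows from -0.06 to 0.08. Signal over background is unknown for every row.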

Other observations

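Rows just outside the choice, with several symbols or a neighbouring name, also had KO 2 as their highest array, in all 8. The row shared by Ighg3, Ighv1-47 and Ighm read 3.84, 10.49, 4.97 and 7.43 in KO 1 to KO 4, against 2.86, 3.86, 3.97 and 7.46 in WT 1 to WT 4. The row shared by Igkv4-53, Igkj1 and Igkv6-23 read 6.26, 11.23, 7.38 and 9.94 in KO, against 6.21, 6.84, 6.84 and 9.53 in WT. The kappa joining segment Igkj1 read 1.71, 6.76, 3.01 and 4.46 in KO, against 2.28, 1.81, 2.09 and 3.72 in WT. None of the 8 rows passed when all rows were tested (limma).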
